A study of Drosophila melanogaster with 60 samples.

Results

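A set of 6 heat shock and co-chaperone genes of Drosophila melanogaster is described here across genotype and time of day in fly heads. The set holds Hsp23, Hsp26, Hsp27, Hsp68, Hsp83 and DnaJ-1, chosen by name or CG number. The table of the overexpression experiment listed 4 of these 6 genes among 7648 genes (Hsp23, CG4463; Hsp27, CG4466; Hsp83, CG1242; DnaJ-1, CG10578). The table of the RNAi experiment listed 5 of the 6 among 7444 genes, the fifth being Hsp68 (CG5436). Hsp26 was not analysed here, nor was Hsp68 in the overexpression experiment.

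The 60 libraries were made by 3′ RNA-seq, a method whose reads come from next to the poly(A) tail. In the overexpression experiment, 12 libraries labelled OE (Tim-gal4; UAS-cbtFLAG) were set against 12 labelled conOE (Tim-gal4 alone). In the RNAi experiment, 18 libraries labelled RNAi (Tim-gal4, UAS-cbt RNAi) were set against 18 labelled conRNAi (Tim-gal4; UAS-Dcr2). Every genotype was collected at Zeitgeber time (ZT, counted in hours from lights-on) 3, 7, 11, 15, 19 and 23, with 2 replicate numbers in the overexpression experiment and 3 in the RNAi experiment; the 6 libraries of a genotype that share a replicate number are called a course. All groups carry the Tim-gal4 driver, which is active in the cells that express the clock gene timeless, so the heads also hold many cells without transgene expression. UAS-Dcr2 stands in the label of conRNAi and not in that of RNAi. The labels give neither sex nor age, and do not say whether replicate libraries came from separate flies, so the spread behind each p-value is that of libraries and may be technical. A head sample cannot tell fewer cells of a type from less RNA per cell.

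Heat shock proteins are molecular chaperones that keep other proteins from misfolding and aggregating. Small heat shock proteins such as Hsp23, Hsp26 and Hsp27 hold unfolded proteins without using ATP. Proteins of the Hsp70 family, to which Hsp68 belongs, refold them in cycles of ATP hydrolysis that J-domain co-chaperones such as DnaJ-1 (the fly Hsp40) start. Hsp83, the fly Hsp90, acts later on, on kinases, receptors and other client proteins that are nearly folded. Heat shock factor (Hsf) switches these genes on under heat or proteotoxic stress, and Hsp83 and DnaJ-1 are also expressed without stress. In the RefSeq gene order Hsp23 and Hsp27 are neighbours on chromosome arm 3L, in a cluster with Hsp22, Hsp26 and Hsp67Ba. Hsp83 and DnaJ-1 lie elsewhere on 3L, and Hsp68 on 3R.

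The level of the targeted gene bore out neither label: it was lower in libraries labelled OE, and no decrease passed the test in those labelled RNAi. The cabut gene (cbt) averaged 95.4 ± 25.5 normalised reads in libraries labelled OE and 284.9 ± 31.4 in conOE (SD, n = 12 each; log2 difference −1.61, limma adjusted p = 3.41e-11). It averaged 308.2 ± 55.5 in libraries labelled RNAi and 317.7 ± 36.7 in conRNAi (SD, n = 18 each; log2 difference −0.06, limma adjusted p = 0.618). Whether 3′ reads of the UAS-cbtFLAG transgene are counted under cbt is not given in the sources used here. Transgene reads that are not counted and exchanged labels cannot be told apart from these values, so every direction below is that of the libraries as labelled OE or RNAi and may not be that of cbt. Library totals ranged from 468075 to 5277204 reads in OE, 674737 to 5512461 in conOE, 349019 to 5634300 in RNAi and 703913 to 13922764 in conRNAi. The values are reads divided by a size factor of the library, and every listed gene had at least 1 read in every library of its table. The conRNAi library of ZT11, course 1, stood apart by a high Hsp23 value and ranked first for 4 other inducible heat shock genes, and results of the RNAi experiment are also given without it.

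In libraries labelled OE, Hsp27 was higher and DnaJ-1 lower than in conOE, and no difference passed for Hsp23 and Hsp83. So 2 of 4 listed genes passed the test, where 41.3% of all 7648 genes did (22.7% higher, 18.6% lower), which puts the count near the background. In libraries labelled RNAi, Hsp68 was lower than in conRNAi, and the differences of the other 4 did not pass. That is 1 of 5 genes, where 22.4% of all 7444 genes passed (9.23% higher, 13.1% lower), again near the background. The test was limma on log2(value + 1), averaged over the 6 times and adjusted over all genes of the table. The 2 tables were normalised separately, so the experiments were not tested against each other.

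**Figure D1:**
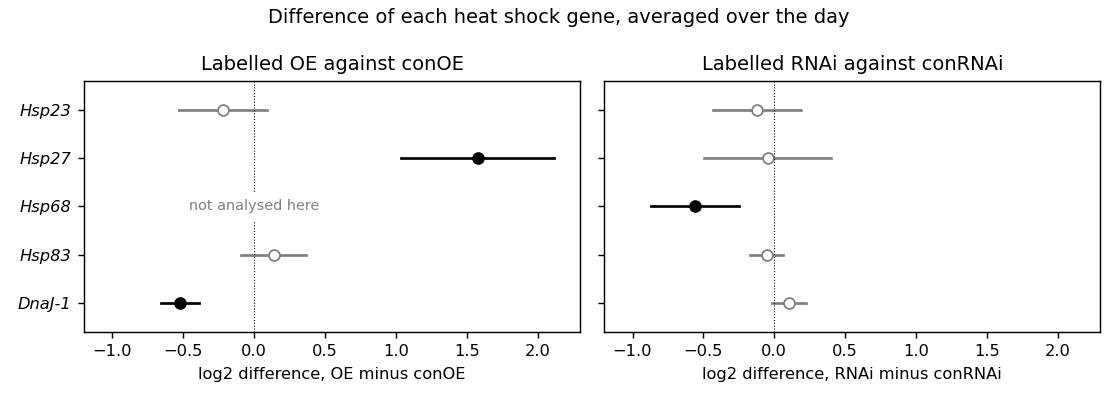
Difference of each gene averaged over the 6 times, in log2(value + 1), OE minus conOE on the left and RNAi minus conRNAi on the right. Points are estimates and bars 95% confidence intervals; filled points passed an adjusted p of 0.05. The interval of Hsp27 lies above 0 and that of DnaJ-1 below it in the OE panel, and that of Hsp68 lies below 0 in the RNAi panel.

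Hsp27, a small heat shock protein found in the nucleus as well as the cytoplasm, was higher in libraries labelled OE, by 2.98-fold on the log2(value + 1) scale. The lowest, median and highest of the 12 libraries were 6.03, 22 and 43.8 normalised reads in OE, against 1.31, 6.97 and 12.7 in conOE. The mean was 24.2 ± 11 in OE and 7.27 ± 3.11 in conOE (SD, n = 12 each). Of the OE libraries, 10 of 12 lay above the highest conOE library, and the ranges overlapped through the remaining 2, both of course 2. The log2 difference was 1.58 (SE 0.262, 95% interval 1.04 to 2.12, limma adjusted p = 2.43e-05). These values rest on few reads, 3 to 57 per library in OE (241 in all) and 1 to 15 in conOE (99 in all). With a pseudocount of 5 in place of 1 the log2 difference was 1.19, and in edgeR on the recovered reads it was 1.73.

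The Hsp27 difference had the same sign at all 6 times. At ZT3 Hsp27 stood at 23.2 and 10.8 normalised reads in the OE libraries and 9.54 and 1.31 in the conOE libraries. At ZT7 it was 21.2 and 6.03 in OE and 5.99 and 5.51 in conOE, the narrowest gap of the day. At ZT11 it was 22.8 and 19.4 in OE and 6.41 and 9.49 in conOE. At these times each OE library was above each conOE library. At ZT15 it was 33.4 and 33.6 in OE and 6.92 and 10.6 in conOE. At ZT19 it was 19.6 and 37.6 in OE and 8.37 and 7.03 in conOE, and at ZT23 18.8 and 43.8 in OE and 3.48 and 12.7 in conOE. The same held at the later times, and so at each of the 6. With 2 libraries against 2 such a gap is weak, and the share of all genes so separated at single times was not counted. The log2 difference ran between 0.89 at ZT7 and 1.93 at ZT23, but with 2 libraries per group none of the single times passed (lowest limma adjusted p = 0.0778, at ZT23). Of all genes 5.95% passed at ZT3, 4.37% at ZT7, 4.82% at ZT11, 5.64% at ZT15, 6.34% at ZT19 and 10.6% at ZT23. A change of the difference over time did not pass either (limma adjusted p = 0.99999 for the interaction), nor did it for any of the 7648 genes, of which 1.58% had an unadjusted interaction p under 0.05.

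Hsp27 did not pass between RNAi and conRNAi. The lowest, median and highest values were 2.57, 7.07 and 29.9 normalised reads in RNAi, against 3.07, 8.13 and 20.1 in conRNAi. The 2 ranges lay over each other. Its log2 difference was −0.05 (95% interval −0.49 to 0.40, limma adjusted p = 0.916).

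DnaJ-1, the co-chaperone that hands unfolded proteins to Hsp70, was lower in libraries labelled OE. The lowest, median and highest libraries were 523.1, 664.1 and 723.8 normalised reads in OE, against 808.7, 897.0 and 1063 in conOE. All 12 OE libraries were below the lowest conOE library. Such a gap between the groups was found for 5.99% of all genes. The mean was 639.9 ± 60.8 in OE and 918.6 ± 80.8 in conOE (SD, n = 12 each), a ratio of 0.697. The log2 difference was −0.52 (SE 0.0661, 95% interval −0.66 to −0.39, limma adjusted p = 4.25e-07). With 76 to 1107 reads per library in OE and 211 to 2036 in conOE, DnaJ-1 was read more deeply than Hsp27.

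The lower DnaJ-1 level was seen at every time. At ZT3 DnaJ-1 was at 688.2 and 535.4 normalised reads in OE and 860.7 and 976.3 in conOE. At ZT7 it was 661.7 and 523.1 in OE and 808.7 and 988.3 in conOE. At ZT11 it was 682.1 and 614.5 in OE and 844.5 and 903.2 in conOE. The first 3 times thus held each OE library under each conOE library, which the gap over all libraries already requires. At ZT15 it was 672.4 and 632.2 in OE and 867.1 and 958.2 in conOE. At ZT19 it was 607.5 and 671.8 in OE and 1063 and 1022 in conOE, the widest gap. At ZT23 it was 723.8 and 666.5 in OE and 840.7 and 890.7 in conOE, the narrowest. Tested alone, ZT3 (log2 difference −0.59, limma adjusted p = 0.0461) and ZT19 (−0.71, adjusted p = 0.0153) passed, where 5.95% and 6.34% of all genes did, and ZT7 missed (−0.60, adjusted p = 0.0523). The ZT3 call ended with the replicate number as a block (adjusted p = 0.0546), and ZT7 passed after TMM rescaling (adjusted p = 0.0428). The interaction with time did not pass (limma adjusted p = 0.99999).

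Between RNAi and conRNAi DnaJ-1 did not pass. Its lowest, median and highest values were 726.2, 946.5 and 1259 normalised reads in RNAi, against 772.3, 886.0 and 1172 in conRNAi. The groups overlapped, with 1 RNAi library above and 1 below the range of conRNAi. Its log2 difference was 0.10 (95% interval −0.02 to 0.22, limma adjusted p = 0.235).

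**Figure D2:**
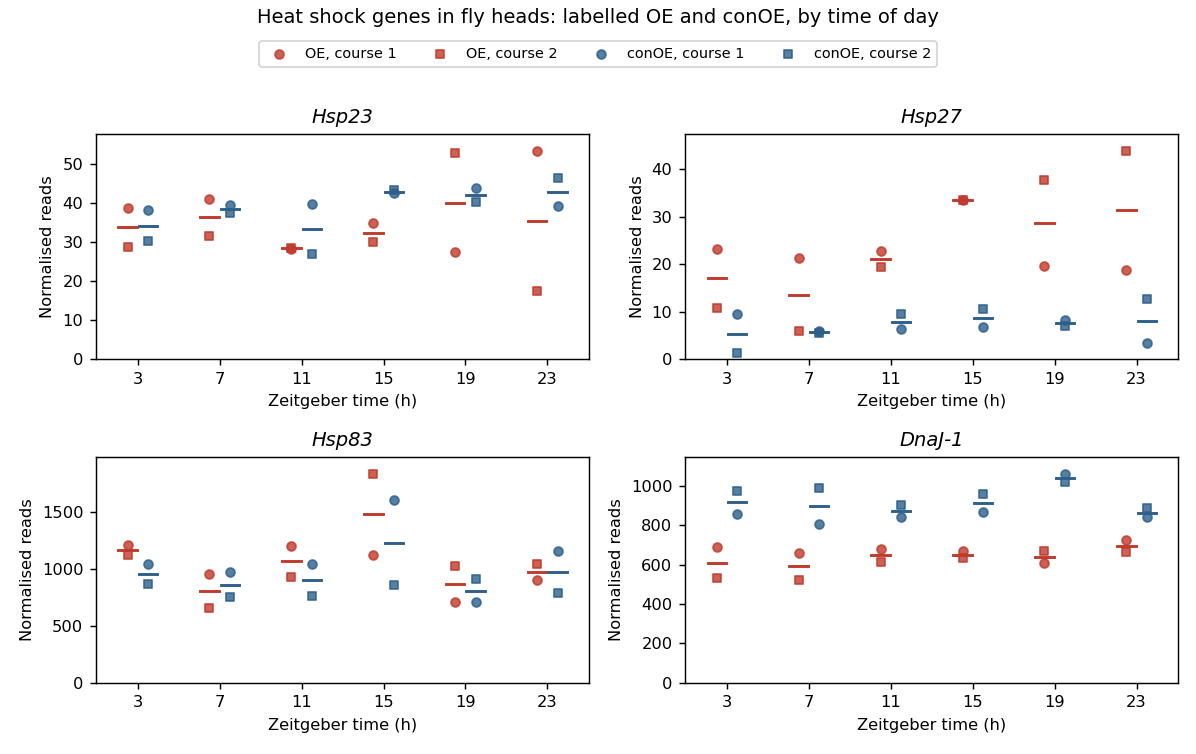
Normalised reads of 4 genes in single libraries of the overexpression experiment by Zeitgeber time (h), OE left of conOE at each time; circles and squares are courses 1 and 2, and short lines are means. All 12 OE libraries of DnaJ-1 lie under the lowest conOE library, and both OE libraries of Hsp27 lie above both conOE libraries at each time.

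Hsp23, a cytoplasmic small heat shock protein, did not pass in either experiment. In the overexpression experiment its lowest, median and highest libraries were 17.5, 30.8 and 53.4 normalised reads in OE, against 27.0, 39.5 and 46.4 in conOE. OE libraries were found on both sides of the conOE range, 2 above it and 1 below. The mean of OE was under that of conOE at 6 of 6 times, but the log2 difference of −0.22 had an interval from −0.53 to 0.09 (limma adjusted p = 0.258). Without the libraries under 1000000 reads the log2 difference of Hsp23 was −0.03 (limma adjusted p = 0.871). Its lowest, median and highest libraries in the RNAi experiment were 15, 39.6 and 63.0 normalised reads in RNAi, against 30.9, 41.4 and 107.3 in conRNAi. The highest value came from a single conRNAi library, of ZT11 in course 1, and the next highest conRNAi library had 76.5. Its log2 difference was −0.12 (95% interval −0.44 to 0.19, limma adjusted p = 0.634). Hsp23 and Hsp27 are neighbours in the genome, and in libraries labelled OE only Hsp27 passed the test; the difference between the 2 genes was not tested.

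Hsp68, an inducible member of the Hsp70 family, was lower in libraries labelled RNAi. The lowest, median and highest libraries were 7.31, 12.5 and 29.9 normalised reads in RNAi, against 13.1, 19.3 and 34.1 in conRNAi. Of the RNAi libraries 11 of 18 were under the lowest conRNAi library and the other 7 lay inside the conRNAi range. The mean was 14.1 ± 5.62 in RNAi and 20.7 ± 6.04 in conRNAi (SD, n = 18 each), a ratio of 0.681. The log2 difference was −0.56 (SE 0.153, 95% interval −0.87 to −0.25, limma adjusted p = 0.00544), and its sign was the same at 6 of 6 times. The reads behind it were few, 3 to 33 per library in RNAi (264 in all) and 8 to 134 in conRNAi (721 in all). The call ended in 3 alternatives: without conRNAi course 1 (log2 difference −0.45, limma adjusted p = 0.0816), without ZT19 (−0.45, adjusted p = 0.0534), and with each course averaged to 1 value (−0.56, adjusted p = 0.0761).

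By time, Hsp68 at ZT3 was at 19.8, 10.3 and 12.5 normalised reads in RNAi and 19, 15.8 and 22.2 in conRNAi. At ZT7 it was 10.1, 13.8 and 13.1 in RNAi and 17.5, 14 and 14.5 in conRNAi. At ZT11 it was 7.31, 19.3 and 10.2 in RNAi and 34.1, 13.1 and 17.6 in conRNAi. Among these times only ZT7 kept the groups apart. At ZT15 it was 18.7, 18.4 and 12.6 in RNAi and 23.9, 21.0 and 18.4 in conRNAi. At ZT19 it was 7.56, 10.5 and 12.2 in RNAi and 30.4, 18.6 and 20.2 in conRNAi. At ZT23 it was 9.80, 29.9 and 17.7 in RNAi and 20.2, 32.2 and 19.6 in conRNAi. ZT19 had the largest log2 difference, −1.11 (limma adjusted p = 0.113), with all 3 RNAi libraries under all 3 conRNAi libraries. With 3 libraries against 3 the gaps at ZT7 and ZT19 are weak. The share of all genes so separated at single times was not counted. The interaction of genotype and time did not pass for Hsp68 (limma adjusted p = 0.99994), nor for any of the 7444 genes, of which 4.51% had an unadjusted interaction p under 0.05. At single times 3.98% of all genes passed at ZT3, 1.67% at ZT7, 1.97% at ZT11, 3.57% at ZT15, 3.13% at ZT19 and 6.82% at ZT23, and none of the 5 listed genes did at any of them.

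Hsp83 did not pass the test between genotypes in either experiment. The lowest, median and highest libraries were 655.8, 1038 and 1838 normalised reads in OE, against 707.1, 889.6 and 1608 in conOE. The groups overlapped across nearly their whole range. The log2 difference was 0.14 (95% interval −0.09 to 0.37, limma adjusted p = 0.341), and its direction turned without course 2 of conOE (−0.04). Libraries of the RNAi experiment ran from 833.0 over a median of 1087 to 1520 in RNAi, against 877.1, 1165 and 1783 in conRNAi. The log2 difference was −0.05 (95% interval −0.17 to 0.06, limma adjusted p = 0.580).

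**Figure D3:**
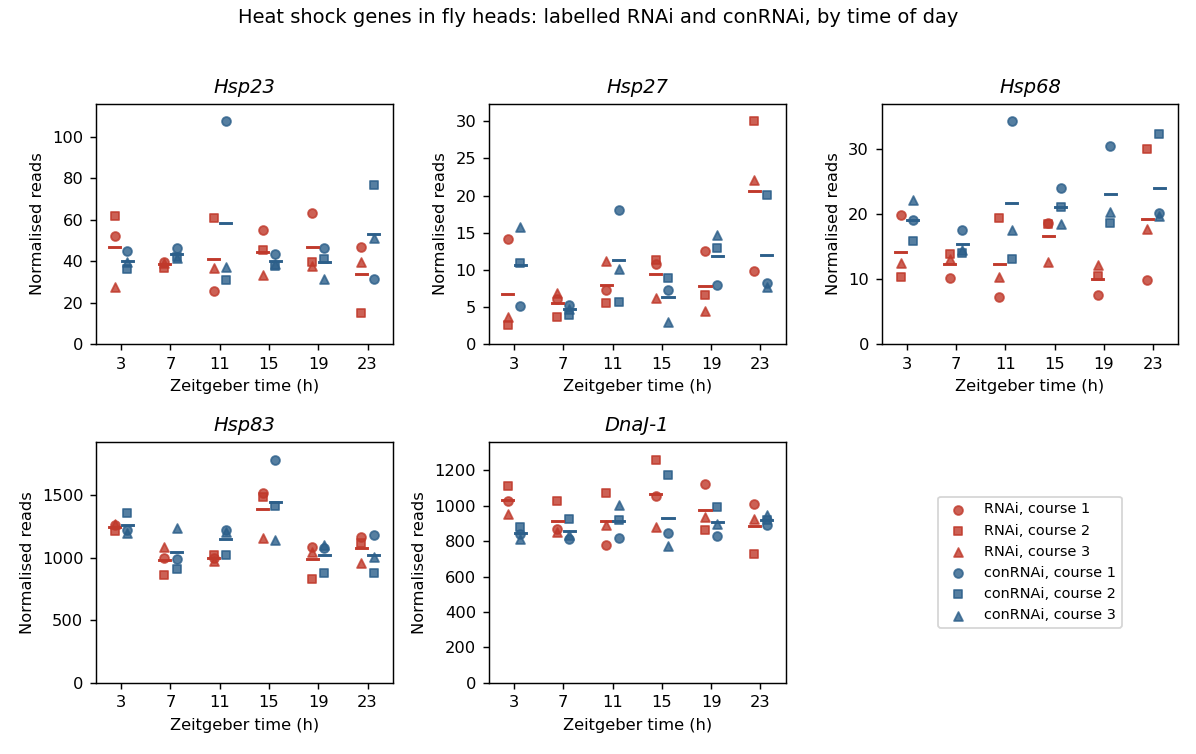
Normalised reads of 5 genes in single libraries of the RNAi experiment by Zeitgeber time (h), RNAi left of conRNAi at each time; circles, squares and triangles are courses 1, 2 and 3, and short lines are means. The Hsp68 mean of RNAi is under that of conRNAi at all 6 times, and the Hsp83 means of both genotypes are highest at ZT15.

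Hsp83 was the one listed gene that passed a test for a difference among times of day, and did so in the RNAi experiment. Its mean was highest at ZT15 in all 4 genotypes and second highest at ZT3 in OE, RNAi and conRNAi. In each genotype the ZT15 libraries overlapped those of the second highest time. At ZT15 the libraries of courses 1, 2 and 3 had 1520, 1485 and 1155 normalised reads in RNAi, and 1783, 1418 and 1146 in conRNAi. In course 3 ZT15 was thus not the highest time in either genotype. The lowest means were 984.1 ± 111 at ZT7 in RNAi and 1021 ± 125 at ZT19 in conRNAi (SD, n = 3 each), so that the highest mean was 1.41 and 1.42 times the lowest. At ZT15 the 2 libraries had 1123 and 1838 in OE, and 1608 and 858.5 in conOE. There the high library was of course 2 in OE and of course 1 in conOE. A test for any difference among the 6 times, added after these values were seen, gave limma adjusted p = 0.00131 in the RNAi experiment, where 6.25% of all genes passed, and adjusted p = 0.342 in the overexpression experiment, where 1.78% did. That call ended without ZT15 (adjusted p = 0.109), without course 1 of both genotypes (0.0914), without course 2 (0.244), and in RNAi (0.218) or conRNAi libraries alone (0.270). The call held without course 3 (0.000494) and without the libraries under 1000000 reads (0.00148).

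A 24 h rhythm was not found for any of the listed genes in any genotype. Among all genes such a rhythm passed for 1.28% in OE, 1.15% in conOE, 4.37% in RNAi and 2.9% in conRNAi. The lowest p was that of Hsp27 in OE (limma adjusted p = 0.391), with an amplitude of 0.66 on the log2 scale and a peak at ZT18.0. Its fitted amplitude in conOE was 0.41, and the difference in rhythm did not pass (limma adjusted p = 0.999). No gene of either table passed that test of the difference, while 4.08% in the overexpression and 4.2% in the RNAi experiment had an unadjusted p under 0.05. In the authors' deposited table the lowest q of their own rhythm test was 0.142 for Hsp68 in conRNAi, followed by 0.174 for Hsp23 in conOE, so none passed 0.05 there either. Of all genes 536 of 7648 in OE, 576 of 7648 in conOE, 821 of 7444 in RNAi and 939 of 7444 in conRNAi had a q under 0.05 in that table. For the order of the times, neighbouring means of Hsp23, Hsp27, Hsp68, Hsp83 and DnaJ-1 mostly had overlapping libraries. At least 4 of 5 neighbouring pairs overlapped in every genotype. Hsp27 had its highest mean at ZT23 in RNAi (20.6 normalised reads) and conRNAi (12) and its lowest at ZT7 in both, but did not pass the test over times (limma adjusted p = 0.248). Its ZT23 libraries of courses 1, 2 and 3 held only 14, 4 and 5 reads in RNAi and 23, 5 and 18 in conRNAi. The highest value of each genotype there came from the shallow library of course 2.

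The genes differed in how far the libraries of a genotype varied beyond read counting. For Hsp83 the coefficient of variation was 28.3% in OE, 25.7% in conOE, 16.7% in RNAi and 18.9% in conRNAi, where counting alone would give 4.53%, 3.40%, 3.76% and 2.66%. For DnaJ-1 it was 9.51% in OE and 8.80% in conOE, against 5.87% and 3.63% from counting, and 13.8% in RNAi and 10.6% in conRNAi, against 3.95% and 3.12%. Hsp83 was thus the more variable of the 2 deeply read genes in all 4 genotypes. For Hsp27 in conOE (42.8%, counting 44.1%) and Hsp68 in RNAi (39.9%, counting 37.7%) the spread was of the size that counting gives. It was larger for Hsp27 in OE (45.5%, counting 32.5%), RNAi (71.1%, counting 51.8%) and conRNAi (52.6%, counting 34.3%) and for Hsp68 in conRNAi (29.2%, counting 21.4%). For Hsp23 it was 30.7% in OE (counting 23%), 14.2% in conOE (18%), 30.9% in RNAi (18.1%) and 40.2% in conRNAi (14.3%).

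Across libraries the genes showed little common movement once each genotype's mean was taken off. Pearson's r between pairs of the listed genes was highest for Hsp27 and Hsp68 (0.53, 36 libraries of the RNAi experiment). It was 0.40 for Hsp23 and DnaJ-1 in the RNAi experiment and 0.40 for Hsp27 and DnaJ-1 over the 24 libraries of the overexpression experiment. The neighbours Hsp23 and Hsp27 had 0.10 in the overexpression and 0.02 in the RNAi experiment. Hsp83 followed the stress-inducible Hsp70Ab most closely among 6 chaperone genes in the overexpression experiment (0.63). In the RNAi experiment Hsp83 had 0.48 with Hsp70Ab and 0.48 with Hsp70Aa, and Hsp68 had 0.55 with Hsp70Ab. All these values share library, depth and time of day, as means of the times were not taken off. Few reads lie behind Hsp27, Hsp68, Hsp70Aa and Hsp70Ab. With the log2 of the library total, Hsp23 had r = 0.67 in the 12 OE libraries and Hsp27 −0.60 in the 18 RNAi libraries, and the other values lay between −0.39 and 0.50 within a genotype.

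By the same measure, among all genes with a mean of at least 20, the closest patterns were not those of chaperone genes in most cases. In the overexpression experiment they were CG7016 (r = 0.84) for Hsp83, Vha16-1 (0.76), a subunit of the vacuolar proton pump, for DnaJ-1, CG13623 (0.75) for Hsp23, and Hsc20 (0.74), a mitochondrial J-domain protein of iron-sulfur cluster assembly, for Hsp27. In the RNAi experiment they were anne (0.77) for DnaJ-1, Aps (0.68) for Hsp23, p130CAS (0.62) for Hsp27, bisc (0.60) for Hsp68 and mIF3 (0.52) for Hsp83. Each is the highest among 6868 to 7003 genes compared.

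Of 80 other chaperone genes in 6 lists, 65 were measured in each experiment. In libraries labelled OE 14 were higher and 8 lower, with a median log2 difference of 0.09, where that of all genes was 0.01 and 22.7% of all genes were higher and 18.6% lower. In libraries labelled RNAi 3 were higher and 12 lower, with a median of −0.09 (all genes −0.01), where 9.23% of all genes were higher and 13.1% lower. Hsp22 and CG4456, which had nearly the same values, count as 2 of the 14 higher genes in OE. The counts of single lists below are small and are to be read against these shares. The split in OE depended on the scaling, with 13 higher and 11 lower after TMM rescaling. The lists were drawn up with earlier results of these data known.

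Among other inducible genes, Hsp22, Hsp70Aa and Hsp70Ab were higher in libraries labelled OE, whereas Hsp23 (−0.22) had not passed. Hsp22, a mitochondrial small heat shock protein from the Hsp27 gene cluster, averaged 64.3 ± 18.9 normalised reads in OE and 31.2 ± 24.6 in conOE (SD, n = 12 each; log2 difference 1.32, limma adjusted p = 0.000423). CG4456 had nearly the same values as Hsp22, so the 2 cannot be told apart. Hsp70Ab averaged 23.6 ± 12.6 in OE and 9.31 ± 4.27 in conOE (log2 difference 1.16, limma adjusted p = 0.00224), and Hsp70Aa 21.5 ± 12.9 in OE and 9.93 ± 3.11 in conOE (0.93, adjusted p = 0.00408). The Hsp70 genes are near-identical copies whose reads can be split between them, and both calls ended without course 1 of OE or without course 2 of conOE. Of the small heat shock proteins 2 of 7 measured were higher, Hsp22 and CG4456, which may be 1 signal counted 2 times. CG7409 was lower (−0.43, limma adjusted p = 0.0490), a call lost in 9 of 20 alternatives. Of the Hsp70 and Hsp110 family 3 of 7 were higher and 1 lower. The lower one was Hsc70-4, the constitutive Hsp70 of the cytoplasm, with 3639 ± 462 in OE and 4847 ± 650 in conOE (−0.41, limma adjusted p = 0.000241). The third that was higher was Hsc70-3, the Hsp70 of the endoplasmic reticulum (0.29, adjusted p = 0.00446).

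Of 23 J-domain proteins other than DnaJ-1, 5 were lower and 2 higher in libraries labelled OE, the lower count near the 18.6% of all genes. Auxilin (aux), which uncoats clathrin vesicles, averaged 110.7 ± 20.4 in OE and 169.6 ± 22.6 in conOE (log2 difference −0.62, limma adjusted p = 2.14e-05). The synaptic vesicle chaperone Csp averaged 256.9 ± 30.8 in OE and 354.8 ± 41.3 in conOE (−0.47, adjusted p = 3.19e-05). The J-domain protein wus, which acts in clathrin-mediated endocytosis, was higher (0.65, adjusted p = 0.00031), and jdp was lower (−0.25, adjusted p = 0.0149). Of the Hsp90 family and its co-chaperones 4 of 12 were higher, Dpit47 (0.60, adjusted p = 0.000562), Gp93 of the endoplasmic reticulum (0.40, 0.00516), the Hsp70-Hsp90 adaptor Stip1 (0.37, 0.00563) and Sgt (0.26, 0.0207), while the mitochondrial Trap1 was lower (−0.37, 0.0288). Of 10 chaperonins 3 were higher, among them CCT3 (0.51, adjusted p = 0.00571), a subunit of the cytosolic TRiC ring. Of all genes 22.7% were higher. Of 20 alternatives, the call of Sgt was lost in 6, that of jdp in 4, and those of Stip1, CCT3 and Hsc70-3 in 3 each. Of the 6 nucleotide exchange factors and Hsf, limma called 0; 2 of them had an unadjusted p under 0.05, and edgeR called 1. Hsf itself averaged 136.3 ± 13.6 in OE and 126.6 ± 15.1 in conOE (0.11, limma adjusted p = 0.293), and stv, the fly BAG3, had 0.11 (adjusted p = 0.272).

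In libraries labelled RNAi, Hsp22 (log2 difference −0.49, limma adjusted p = 0.112), Hsp70Aa (−0.38, 0.232) and Hsp70Ab (−0.13, 0.686) did not pass beside the lower Hsp68. Hsp22 did pass as lower in 4 of 23 alternatives, among them edgeR, and Hsp70Aa in 1 of 22, without ZT23 (adjusted p = 0.016). The largest decrease among the chaperones was that of CCT7, another TRiC subunit, with 55.3 ± 14.5 normalised reads in RNAi and 136.7 ± 21.8 in conRNAi (SD, n = 18 each; −1.32, limma adjusted p = 3.4e-14). Also lower were Trap1 (−0.79, adjusted p = 8.83e-06), CG11267, the fly Hsp10 (−0.40, 9.48e-06), Hsp60A (−0.26, 0.00927) and Hsc70-5 (−0.26, 0.00457). All 4 act in mitochondria, as does the J-domain protein CG5504, which was also lower (−0.24, limma adjusted p = 0.0411). But so do Hsp22, Hsc20 (0.20, adjusted p = 0.384) and Roe1 (−0.17, 0.164), which did not pass. No list of mitochondrial chaperones was tested. The calls of Hsp60A and Hsc70-5 were lost in 5 and 3 of 23 alternatives, and the values of Hsc70-5 are shared with another gene. By list, 1 of 7 small heat shock proteins passed and was higher, l(2)efl, the fly alphaB-crystallin relative (0.34, adjusted p = 0.005, a call lost in 1 of 23 alternatives). Of the Hsp70 and Hsp110 family 1 of 7 was lower, of the J-domain proteins 4 of 23 lower and 1 higher, of the Hsp90 family and co-chaperones 4 of 12 lower and 1 higher, and of the chaperonins 3 of 10 lower, where 13.1% of all genes were lower and 9.23% higher. Beside Trap1, the lower ones of the Hsp90 list were Gp93 (−0.26, limma adjusted p = 0.00341), Sgt (−0.29, 0.00428) and p23 (−0.20, 0.0081). Their calls were lost in 3, 2 and 1 of 23 alternatives. In libraries labelled OE, Gp93 and Sgt were higher, Trap1 was lower as in RNAi, and p23 did not pass. The J-domain protein with the lowest p was CG7872 (−0.46, adjusted p = 1.92e-05), also lower in libraries labelled OE (−0.40, limma adjusted p = 0.0306). After it came CG10565 (−0.37, 0.00391), CG3061 (−0.20, 0.00944) and CG5001 (0.29, 0.0146), lost in 2, 5 and 6 of 23 alternatives. Of the nucleotide exchange factors and Hsf, limma and edgeR called 0 of 6, as did the unadjusted p at 0.05, and Hsf had 0.14 (adjusted p = 0.171).

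**Figure D4:**
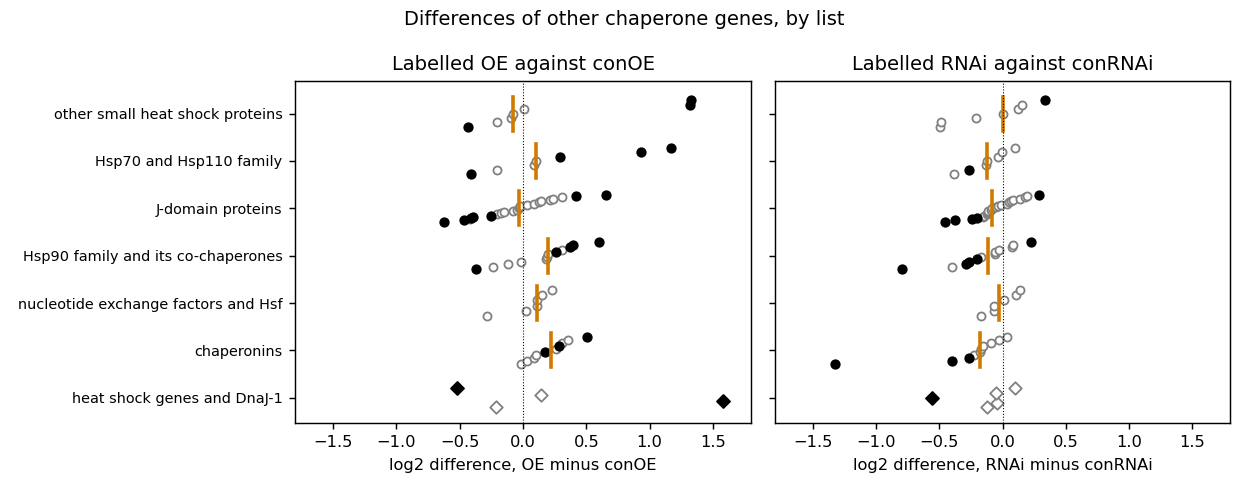
Differences averaged over the day in log2(value + 1), OE minus conOE on the left and RNAi minus conRNAi on the right, for 65 other chaperone genes by list (circles) and for the listed heat shock genes with DnaJ-1 (diamonds). Filled symbols passed an adjusted p of 0.05 and vertical bars are list medians; 14 circles are filled above 0 and 8 below in the OE panel, 3 and 12 in the RNAi panel.

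Marker genes of other cell types and of an immune response differed with the same labels, where 22.7% of all genes were higher and 18.6% lower in OE, and 9.23% higher and 13.1% lower in RNAi. In libraries labelled OE, 6 of 6 measured inducible immune genes were higher, with a summed level of 12871 to 33577 normalised reads in OE and 917.2 to 4175 in conOE. Of 8 fat body markers 5 were higher and 1 lower, with sums of 136567 to 404863 in OE and 127821 to 346927 in conOE. Photoreceptor markers were lower in 7 of 11 and higher in 1 (sums 69590 to 88362 in OE, 81634 to 100077 in conOE). Glial markers were lower in 6 of 6 (3482 to 4639 in OE, 4177 to 6110 in conOE). Neuronal markers were lower in 2 of 7 (850.7 to 1146 in OE, 1079 to 1343 in conOE), and muscle markers higher in 1 and lower in 2 of 6 (3148 to 5413 in OE, 3306 to 4914 in conOE). In libraries labelled RNAi fat body markers were lower in 5 of 8 and higher in 1, with sums of 93016 to 371554 in RNAi and 125775 to 313747 in conRNAi. Neuronal markers were higher in 4 of 7 and lower in 1 (1067 to 1479 in RNAi, 1016 to 1449 in conRNAi). Photoreceptor markers were lower in 3 of 11, glial markers higher in 2 of 6, muscle markers higher in 1 of 6 and inducible immune genes lower in 1 of 5. The part of these markers in the Hsp27, DnaJ-1 and Hsp68 differences was not tested.

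A pair of libraries of the RNAi experiment ranked at the extremes for the inducible genes. The conRNAi library of ZT11, course 1, was the highest of 18 for Hsp22 (101.1 normalised reads, 2.84 times the conRNAi median), Hsp23 (107.3, 2.59 times), Hsp68 (34.1, 1.77 times), Hsp70Aa (37.7, 2.85 times) and Hsp70Ab (31.3, 2.04 times), and second for Hsp27 (18.1, 2.23 times). The next conRNAi library had 93.9 for Hsp22, 76.5 for Hsp23, 32.2 for Hsp68, 35.0 for Hsp70Aa and 31.0 for Hsp70Ab, so the library of ZT11, course 1, was clearly apart only for Hsp23. That library ranked 6 for Hsp83 and 15 for DnaJ-1. These values rest on 71 to 421 reads per gene for the 6 high genes. Without this library, left out after its values were seen, the log2 difference of Hsp68 was −0.50 (limma adjusted p = 0.0129). That of Hsp23 was then −0.04, of Hsp27 0.02, of Hsp83 −0.04 and of DnaJ-1 0.09, and none of these passed. The RNAi library of ZT23, course 2, the shallowest with 349019 reads, was highest of 18 for Hsp22, Hsp27, Hsp68 and Hsp70Ab and lowest for Hsp23 and DnaJ-1. Only 4 reads lie behind its Hsp27 and its Hsp68 value, and 2 behind its Hsp23 value. Without the libraries under 1000000 reads the log2 difference of Hsp68 was −0.62 (limma adjusted p = 0.00133), and that of Hsp23 was 0.01 in place of −0.12.

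**Figure D5:**
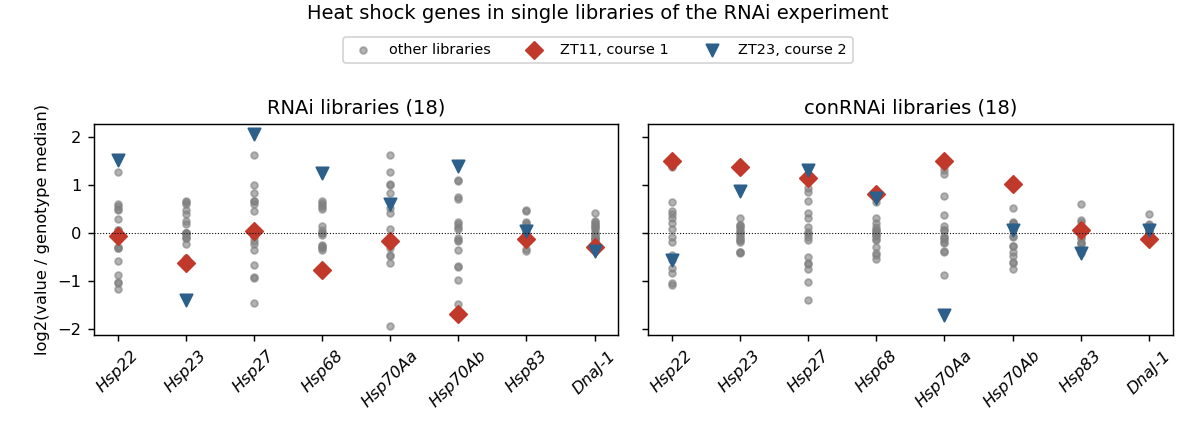
Value of 8 heat shock genes in each RNAi library (left) and each conRNAi library (right) relative to the median of its genotype, on a log2 axis. Diamonds mark the libraries of ZT11, course 1, which in conRNAi are highest for 5 of the 8 genes, and triangles those of ZT23, course 2.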

How the data were processed

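The 60 libraries of fly heads were grouped by genotype, Zeitgeber time and replicate number (here "course") from the sample labels. Each deposited signal value belongs to 1 transcript in 1 library and is, judged from its steps, a number of reads over a library factor: within 0.05 reads, all values were whole in 59 of 60 libraries. Bowtie, TopHat and build dm3 were used per the submitters' processing notes; not given in the sources used here were their versions, the annotation and the counting step. Of the tables' columns, 26 and 28 did not enter any fit, and p-values and q-values that the authors deposited for their rhythm test only stand beside the fits made here. For every CG number the transcript of highest mean was kept. Symbols came from a RefSeq table (assembly Release 6 plus ISO1 MT, another build, used for names and gene order only), in which 7378 and 7186 genes were found by locus tag, and 262 and 252 through a synonym.

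Differences were fitted with limma 3.58.1 (trend, R 4.3.3) on log2(value + 1) within each experiment, with genotype and time as factors and Benjamini-Hochberg adjustment over the whole table; low genes change by more than this scale shows. For counts a count model had been planned; since the values were normalised, limma was used, and edgeR 4.0.16 on recovered reads was an alternative. Rhythms were a 24 h harmonic. All genes of the set are named. Of each chaperone list, names were taken from the 4 genes of lowest adjusted p in each experiment, though not always all 4. Hsf, stv, Hsp70Ab, CG7409, Trap1, Hsc20, CG5504 and CG7872 were also named where outside that rule. The genes, lists and tests were chosen with earlier results of these data known. The code was tested on simulated data.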

Additional observations from a re-analysis of the deposited data

How the results depend on the processing

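In the overexpression experiment the Hsp27 and DnaJ-1 calls held in every alternative that could be run, 19 for Hsp27 (log2 difference 1.19 to 1.73) and 20 for DnaJ-1 (−0.60 to −0.45). Hsp27 has too low a mean for the filter at a mean of 20. The number of genes called over the day was 3155 (OE) and 1664 (RNAi); with 1 value per course it was 1986 and 672, and leaving out a course gave 1067 to 1899 in the RNAi experiment. Hsp68 lost its call with 1 value per course (−0.56), without conRNAi replicate 1 (−0.45) and without ZT19 (−0.45); leaving out a course gave −0.68 to −0.45.

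Differences that did not pass changed sign in places. Without single courses Hsp83 ranged between −0.043 (without conOE replicate 2) and 0.32 in OE, and between −0.11 and 7.2e-05 (without conRNAi replicate 1) in RNAi. Hsp23 in RNAi was 0.0099 without libraries under 1000000 reads. Hsp27 in RNAi ranged from −0.16 to 0.028 (without RNAi replicate 2) without single courses, with 0.014 without conRNAi replicate 2, and was 0.096 without ZT3, 0.019 without ZT11, 0.065 without ZT19, and 0.018 without the conRNAi library of ZT11, course 1, an alternative added after seeing the data. After TMM rescaling Hsp83 was −0.045 at ZT23 in OE and 0.013 at ZT3 in RNAi, and DnaJ-1 0.0032 at ZT11 in RNAi; stv in RNAi ran from −0.18 to 0.019 without single courses. The causes were not tested.

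Leaving out a course gave up to 14 genes with an interaction in OE and 11 in RNAi, against 0, and 2 with a difference in rhythm in OE. Rhythmic genes then numbered 35 to 274 in OE (98 with all courses), 21 to 114 in conOE (88), 189 to 314 in RNAi (325) and 88 to 266 in conRNAi (216). Libraries of a genotype and its control that share time and replicate number were compared after each genotype's mean at that time was taken off. The median correlation of what remained was 0.0158 in the overexpression and 0.0794 in the RNAi experiment. With only 2 numbers, both pairs of a time give the same value in the overexpression experiment. Its 6 of 12 that correlated best with their own number thus only follow the sign of that value. In the RNAi experiment 14 of 18 correlated best with their own number. The main fits took no pairs, and these values do not settle whether the numbers mark pairs. With the replicate block 3158 and 1821 genes were called over the day, 404 at ZT15 and 361 at ZT19 in RNAi (266 and 233 without it), and no day-average call of the listed genes changed. TMM rescaling moved the median of all genes by −0.04 in OE and split the calls 1583 higher and 1631 lower (1734 and 1421 as deposited). Depth limits Hsp27 and Hsp68, with 10 reads or fewer in many libraries, and intervals cover no error from shared flies.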
